A study of Mus musculus with 6 samples.

Results

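The 4 tissue inhibitors of metalloproteinases, Timp1, Timp2, Timp3 and Timp4, and the membrane-anchored inhibitor Reck were examined in mouse mammary glands in which Mmp14 was targeted in the stroma. The 5 genes were chosen by name, and each was read by the 1 probe set that the platform annotation gives it, out of 22180 genes tested. All 5 were measured, and on every array each of them read above 2.68 log2 units, the 33rd percentile of gene levels. RNA came from intact inguinal glands of C57BL/6J mice aged 4 weeks, hybridised to Affymetrix arrays. The wild-type group of 3 arrays was Mt1-mmp(+/+), Mt1-mmp being the older name of Mmp14. The knockout group of 3 arrays was Dermo1Cre/Mt1-mmp(fl/fl), in which Cre from the Dermo1 (Twist2) locus, active in mesenchymal cells, deletes the floxed gene in the stroma. Wild-type animals were littermates, and no Dermo1Cre without the floxed gene is among the labels, so Cre alone and loss of Mmp14 cannot be told apart. The labels call the 3 arrays of each group biological replicates, so n = 3 per group throughout.

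TIMPs are small secreted proteins that block metalloproteinases by wedging their amino-terminal end into the catalytic cleft. TIMP2 both inhibits MMP14 and, bound to it, presents the proenzyme of MMP2 for activation, whereas TIMP1 is a poor inhibitor of MMP14. TIMP3 is held in the matrix and also blocks several ADAM and ADAMTS proteases. TIMP4 is found mainly in heart, brain, muscle and fat, and RECK is a lipid-anchored surface protein that restrains MMP2, MMP9 and MMP14 and also serves as a co-receptor for Wnt7 ligands. In the mammary gland, metalloproteinases and their inhibitors take part in branching of the ducts through the fat pad.

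Of the 5 genes, Timp4 rose, Timp2 and Reck fell, and Timp1 and Timp3 did not pass the threshold (limma, adjusted p under 0.05 over all genes). Across all genes, 12.2% passed, 5.05% rising and 7.2% falling, so 3 of 5 stands beside that background. In whole tissue, fewer cells of a type and less RNA per cell cannot be told apart. The start regions of the 3 genes that passed are shown, and no link between their bases and the direction of change was tested. Each is the 250 bases before the RefSeq start site (GRCm38.p6), read 5′ to 3′ on the gene's own strand, at chr6:115252206-115252455 (minus strand) for Timp4, chr11:118355412-118355661 (minus strand) for Timp2 and chr4:43875280-43875529 (plus strand) for Reck. Capitals mark GC boxes (GGGCGG) and CCAAT boxes (CCAAT), sought on both strands.
Timp4: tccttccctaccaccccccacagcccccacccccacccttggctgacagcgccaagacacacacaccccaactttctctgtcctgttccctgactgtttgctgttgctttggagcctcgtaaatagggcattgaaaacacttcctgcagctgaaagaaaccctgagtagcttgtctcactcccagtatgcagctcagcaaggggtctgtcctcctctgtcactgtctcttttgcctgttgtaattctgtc
Timp2: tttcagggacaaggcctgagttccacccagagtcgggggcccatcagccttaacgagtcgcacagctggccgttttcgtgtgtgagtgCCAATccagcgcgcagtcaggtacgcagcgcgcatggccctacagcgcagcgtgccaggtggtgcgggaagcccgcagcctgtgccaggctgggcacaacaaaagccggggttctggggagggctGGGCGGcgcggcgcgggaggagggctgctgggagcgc
Reck: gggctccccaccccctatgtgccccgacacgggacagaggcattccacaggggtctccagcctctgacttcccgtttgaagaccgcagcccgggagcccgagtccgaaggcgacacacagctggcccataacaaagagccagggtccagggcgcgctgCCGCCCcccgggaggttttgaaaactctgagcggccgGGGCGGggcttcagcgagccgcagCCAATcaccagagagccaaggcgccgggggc

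The Timp4 window held 2 CpG dinucleotides, against 21 for Timp2 and 19 for Reck, and a median of 6 over all 32851 RefSeq windows of that length. It held neither box, whereas Timp2 had 1 GC box and 1 CCAAT box, and Reck had 2 and 1. Over all windows, 32.7% held a GC box and 33.8% a CCAAT box. A search for TATAAA, found in 12.4% of windows, and for the AP-1 element TGANTCA, found in 6.75%, gave no match in the windows of the 5 genes. Variant forms of these elements, and sites outside the windows, were not sought. Of the members that did not pass, the Timp3 window held 18 CpG and the Timp1 window 6, each had 1 GC box, and Timp1 also had 1 CCAAT box. These matches describe letters in a window and say nothing of which factors bind there.

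Timp4, the inhibitor best known from heart and fat, was the 1 member that rose. Its signal was 6.88, 6.88 and 7.17 log2 units in wild type 1, 2 and 3 and 8.63, 8.77 and 8.58 in knockout 1, 2 and 3. Every knockout array lay above every wild-type array, and the lowest knockout array, 8.58, stood well clear of the highest wild-type array, 7.17. The group means were 6.98 ± 0.17 (SD) and 8.66 ± 0.10, a rise of 1.69 ± 0.13 log2 units (SE; 95% interval 1.38 to 1.99; limma adjusted p = 0.000476), or 3.22-fold. Ordered by difference, Timp4 had rank 28 among the 22180 genes and rank 26 among those that rose. By exact permutation over the arrays (two-sided) p was 0.1, which is the minimum for 3 arrays against 3.

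Reck, the membrane-anchored inhibitor, fell. It read 8.26, 7.97 and 8.28 in wild type 1, 2 and 3 and 7.35, 7.30 and 7.31 in knockout 1, 2 and 3. The knockout arrays were nearly identical to one another and all lay below the wild-type arrays. The means were 8.17 ± 0.18 (SD) and 7.32 ± 0.03, a fall to 55.4% of wild type (-0.85 ± 0.13 SE; 95% interval -1.14 to -0.56; limma adjusted p = 0.00568). Of all genes, 4.59% had a more negative difference.

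Timp2, which pairs with MMP14 in the activation of MMP2, fell by a smaller amount. Its signal was 10.58, 10.24 and 10.49 in the wild-type arrays and 9.86, 9.87 and 9.9985 in the knockout arrays. The groups did not overlap, and wild type 2 came closest to the knockout arrays. The means of 10.43 ± 0.18 (SD) and 9.91 ± 0.08 put the knockout at 69.5% of wild type (-0.52 ± 0.13 SE; 95% interval -0.83 to -0.22; limma adjusted p = 0.0377). This call sat near the threshold. Leaving out wild type 1 gave an adjusted p of 0.119, wild type 3 gave 0.109, knockout 1 gave 0.103, knockout 2 gave 0.115 and knockout 3 gave 0.0591, so each ended the call. Subtracting every array's median also ended it (-0.44, adjusted p = 0.0593).

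Timp1, the inducible inhibitor of secreted metalloproteinases, read lower in the knockout but did not pass. It read 5.82, 6.26 and 5.37 in wild type and 5.35, 4.64 and 4.75 in the knockout. The groups did not overlap, but wild type 3 and knockout 1 were almost level, and the arrays of each group were spread more widely than for any other member. The means were 5.81 ± 0.44 (SD) and 4.91 ± 0.39, a difference of -0.90 ± 0.26 (SE; 95% interval -1.51 to -0.29; limma adjusted p = 0.0659). Without wild type 3 the difference was -1.12 (adjusted p = 0.0470) and without knockout 1 it was also -1.12 (adjusted p = 0.0428), and both passed. It also passed when genes with low signal were left out (adjusted p = 0.0493) and with an intensity trend in the variance (0.0373).

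Timp3, the matrix-bound inhibitor, showed the smallest difference. Its signal was 10.28, 10.08 and 10.36 in wild type and 10.47, 10.29 and 10.36 in the knockout, and the groups overlapped. The means were 10.24 ± 0.14 (SD) and 10.37 ± 0.09, a difference of 0.13 ± 0.12 (SE; limma adjusted p = 0.554). The 95% interval ran from -0.15 to 0.42, which leaves room for a rise of that size but not for one like that of Timp4. Of the 5 members, 4 had groups that did not overlap, as had 32.7% of all genes.

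**Figure D1:**
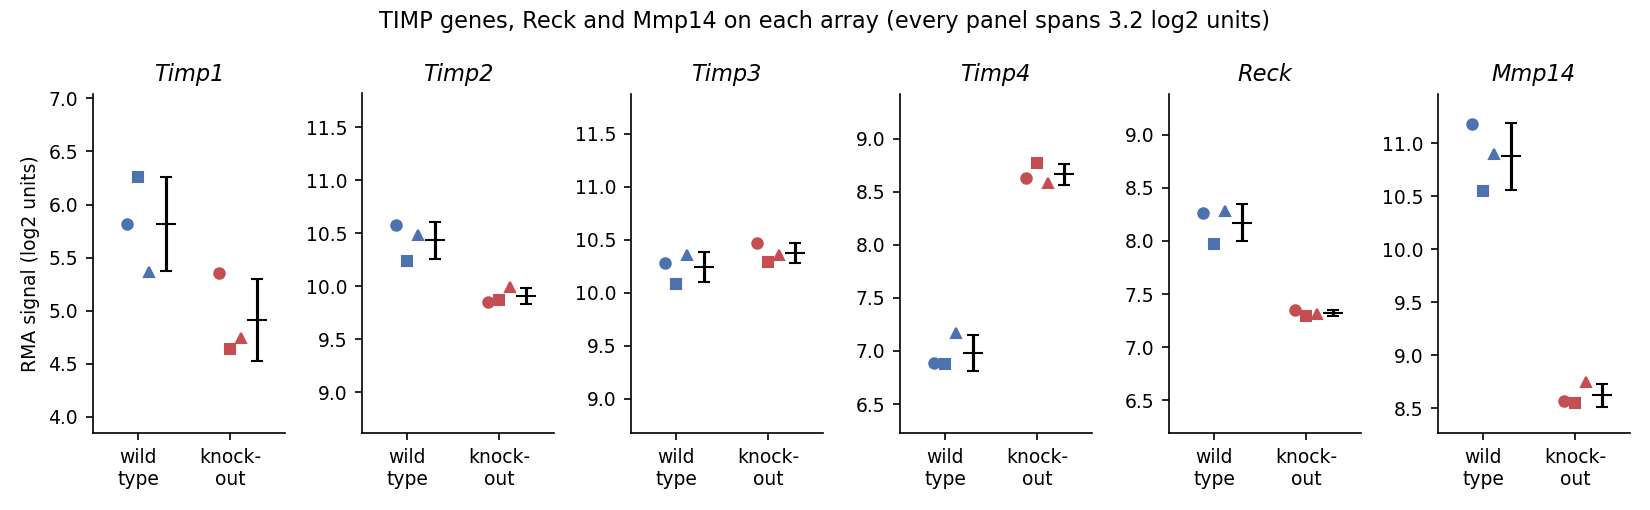
RMA signal in log2 units of the 5 inhibitor genes and Mmp14 on each array, wild type in blue and knockout in red, with circles, squares and triangles for replicates 1, 2 and 3 and a bar for the mean ± SD. Timp4 sits at 6.88 to 7.17 in wild type and 8.58 to 8.77 in the knockout, Reck and Timp2 sit lower in the knockout, and the Timp3 groups overlap.

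The members were also compared with one another within each array, as the difference between a pair of log2 signals set to 0 at the wild-type mean. Over 10 pairs, the knockout difference was -2.59 log2 units for Timp1/Timp4, 2.54 for Timp4/Reck, -2.21 for Timp2/Timp4 and -1.55 for Timp3/Timp4, so Timp4 gained on each of the others. It was 0.99 for Timp3/Reck, 0.33 for Timp2/Reck, -0.66 for Timp2/Timp3 and -1.04 for Timp1/Timp3. In these 8 pairs the groups did not overlap. Their exact permutation p (two-sided) was 0.1, and 0.125 after Benjamini-Hochberg adjustment, so none could pass with 3 arrays a group. How often pairs drawn from all genes separate was not counted, while 32.7% of single genes did. All 10 pairs reuse the same member signals, so these separations are no separate test of the differences given above. The Timp1/Timp2 and Timp1/Reck pairs overlapped between groups (exact p = 0.5 and 0.9).

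The inhibitors were set against the 2 proteases that TIMP2 links, again as a difference of log2 signals within an array. Mmp14, the deleted gene, was 11.18, 10.55 and 10.90 in wild type and 8.57, 8.55 and 8.75 in the knockout. Its difference of -2.25 ± 0.17 (SE) passed (limma adjusted p = 0.000454) and goes with the labels, though which part of the gene its probes read was not checked. Since every inhibitor fell by less than Mmp14 or rose, all 5 inhibitor-to-Mmp14 ratios were higher in the knockout. Timp4/Mmp14 was up by 3.94 log2 units, or 15.3-fold, and the knockout arrays lay at 3.73 to 4.12 above the wild-type mean. Timp3/Mmp14 was up by 2.39, Timp2/Mmp14 by 1.73, Reck/Mmp14 by 1.40 and Timp1/Mmp14 by 1.35. In the Timp2/Mmp14 ratio the knockout arrays agreed closely, at 1.73, 1.76 and 1.70. In all 5 the groups did not overlap (exact two-sided permutation p = 0.1, adjusted over 10 ratios 0.143). Because Mmp14 is the deleted gene, these 5 separations were largely set by the genotype and are no separate test of the inhibitors.

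Mmp2, a secreted gelatinase, gave another picture. It read 11.55, 10.89 and 11.53 in wild type and 10.77, 10.56 and 10.98 in the knockout, with overlapping groups, and its difference of -0.55 ± 0.21 (SE) did not pass (limma adjusted p = 0.132; without wild type 2, -0.77 and 0.0340). The Timp2/Mmp2 ratio differed by 0.03 log2 units, with arrays from -0.16 to 0.24 in wild type and -0.09 to 0.20 in the knockout (exact p = 0.8). Timp4/Mmp2 was up by 2.24 and Timp3/Mmp2 by 0.69, and neither overlapped between groups (exact p = 0.1, adjusted 0.143). Reck/Mmp2 and Timp1/Mmp2 differed by -0.30 and -0.35, and both overlapped (exact p = 0.2 and 0.6). The Timp1/Mmp2 value rested on single arrays, at 0.0905 without wild type 2 and -0.67 without wild type 3. The ratios are of RNA signal and give no measure of protein or of free inhibitor.

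**Figure D2:**
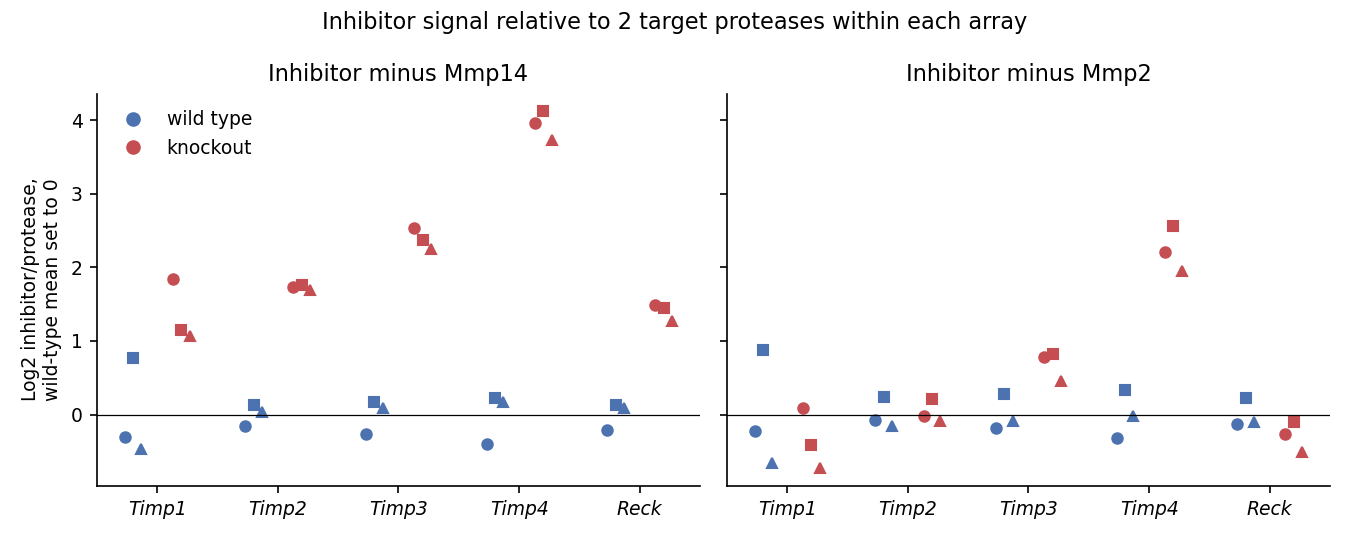
Log2 ratio of each inhibitor to Mmp14 (left) and to Mmp2 (right) within an array, with the wild-type mean set to 0, wild type in blue, knockout in red and circles, squares and triangles for replicates 1, 2 and 3. All 5 ratios to Mmp14 are higher in the knockout, by 1.35 to 3.94, whereas of the ratios to Mmp2 those of Timp4 and Timp3 are separated between the groups.

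Of the proteases that TIMPs and RECK act on, the MMPs were taken as whole families. Of 5 measured membrane-type MMPs, Mmp14 and Mmp16 fell and 0 rose. Mmp16, which also activates proMMP2, went from 4.68 ± 0.32 (SD) to 3.41 ± 0.25 (-1.27 ± 0.20 SE, limma adjusted p = 0.00689). Of 17 MMPs listed here as secreted, Mmp23 (-0.75 ± 0.12, adjusted p = 0.00828) and Mmp19 (-0.47 ± 0.12, adjusted p = 0.0472) fell and 0 rose. With arrays centred on the medians of the genes tested, the balance turned, and 3 rose and 1 fell. In the main comparison 7.2% of all genes fell and 5.05% rose, so 0 rises in lists this short says little. The Mmp19 call was lost without any 1 array (adjusted p 0.05001 to 0.136). Mmp9, the gelatinase that RECK and TIMP1 restrain, differed by -0.25 ± 0.17 (adjusted p = 0.393), and Mmp3 by 0.05 ± 0.22 (adjusted p = 0.907). The mean signal of 6 secreted MMPs lay under the 33rd percentile, where a change could be missed. The median difference was -0.37 for the membrane-type and 0.11 for the secreted family, beside 0.03 for all genes and -0.52 for the 5 inhibitors.

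TIMP3 blocks some but not all ADAM and ADAMTS proteases. The ADAMs were a chosen list of 9 proteolytic members, not the whole family, and the ADAMTS family was taken whole. Of the first, 2 of 9 measured ADAMs fell and 0 rose. They were Adam10, a sheddase of Notch receptors and growth factor precursors (-0.81 ± 0.13, limma adjusted p = 0.0087), and Adam19 (-0.74 ± 0.12, adjusted p = 0.00887). Adam17, the main sheddase of TNF and of EGF-family ligands, differed by -0.32 ± 0.16 (adjusted p = 0.269). Over all genes 7.2% fell and 5.05% rose. Of 18 ADAMTS proteases, 6 fell and 1 rose. Adamts18 fell the most, from 5.73 ± 0.08 (SD) to 2.73 ± 0.30 (-3.00 ± 0.16 SE, adjusted p = 0.000154), followed by Adamts19 (-1.87 ± 0.17), the procollagen peptidase Adamts3 (-1.75 ± 0.18), Adamts16 (-1.06 ± 0.28), the aggrecanase Adamts4 (-0.98 ± 0.24) and the procollagen peptidase Adamts14 (-0.88 ± 0.16). Adamts9, the 1 that rose (+0.46 ± 0.11, adjusted p = 0.0293), lost its call without any 1 array (0.0629 to 0.0920). Adamts4 lost it without any 1 array other than knockout 2 (0.0644 to 0.119), Adamts16 without any 1 other than knockout 3 (0.0714 to 0.130) and Adamts14 without wild type 1 (0.0536). Adamts14 has 2 probe sets, and their mean differed by -0.54 (adjusted p = 0.0419). The median difference was -0.17 for the listed ADAMs and -0.53 for the ADAMTS family. With wild type 1 left out 3 ADAMTS genes fell, and with wild type 3 or knockout 1 left out 4 fell. Adamts9 was added after its value had been seen, as were Mmp9, Mmp3 and Adam17, which are named for their place among TIMP or RECK targets.

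A list of other protease inhibitors and related proteins was read next. Of 13 measured, 4 fell and 0 rose, beside 7.2% and 5.05% of all genes, with a median of -0.42. Not every gene of the list inhibits proteases. Pcolce (+0.04) and Pcolce2 (-0.42), which enhance procollagen processing, did not pass. Serpinb5 and Serpinf1 are counted among the non-inhibitory serpins. Serpinb5 (maspin), a serpin of myoepithelium, fell by 2.73 ± 0.26 log2 units (SE, limma adjusted p = 0.000981). The Kunitz-type serine protease inhibitors of epithelium, Spint2 and Spint1, fell by 1.74 ± 0.17 and 1.47 ± 0.23. On the same arrays all 8 luminal markers fell (list median -2.51) and 6 of 7 basal markers fell (list median -1.41), and their part in these falls was not tested. Tfpi2, a Kunitz-type inhibitor deposited in the matrix, fell by 0.88 ± 0.16 (adjusted p = 0.0132; 0.0515 without wild type 3). Timp4 lay outside the range of this list, whose highest difference was 0.30 (Cst3, adjusted p = 0.271). With an intensity trend 7 of the 13 fell.

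**Figure D3:**
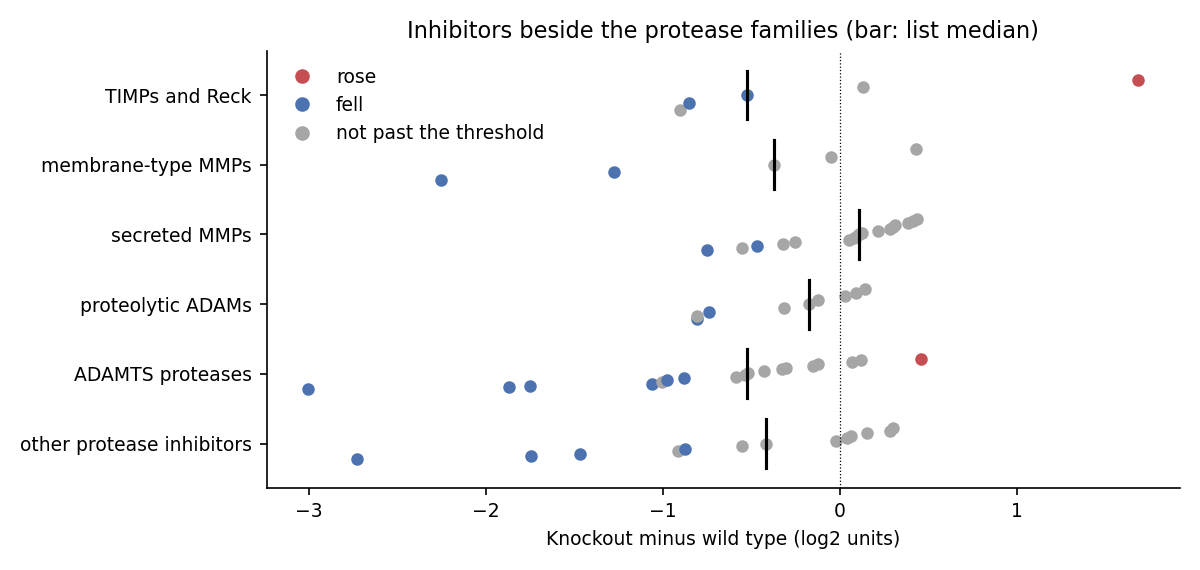
Difference between knockout and wild type (log2 units) for each gene of the inhibitor group, the protease lists and the list of other protease inhibitors and related proteins. A bar marks each list's median, with red for genes that rose, blue for genes that fell and grey for the rest. Timp4, at 1.69, is the point farthest to the right, and Adamts18, at -3.00, is the farthest to the left.

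The binding partners of TIMPs and RECK divided between the directions. Of 13 measured, 3 fell and 2 rose, beside 7.2% and 5.05% of all genes. Adgra2 (Gpr124), the receptor that works with RECK in Wnt7 signalling, fell as Reck did. It read 7.60, 7.25 and 7.35 in wild type and 6.52, 6.40 and 6.53 in the knockout (-0.91 ± 0.13 SE, limma adjusted p = 0.00493), with no overlap. Fzd4, a Frizzled receptor that takes part in the same complex, rose from 9.37 ± 0.06 (SD) to 10.15 ± 0.10 (+0.77 ± 0.11 SE, adjusted p = 0.00524). The ligands Wnt7a and Wnt7b did not pass (adjusted p = 0.622 and 0.183), and the mean signal of Wnt7a, 2.32 in wild type and 2.47 in the knockout, lay under the 33rd percentile.

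Partners of TIMP3 moved in both directions. Kdr, the VEGF receptor whose ligand binding TIMP3 can block, rose from 8.74 ± 0.07 (SD) to 9.60 ± 0.11 (+0.85 ± 0.12 SE, limma adjusted p = 0.00412). Efemp1, a fibulin that binds TIMP3, fell from 11.05 ± 0.11 to 10.35 ± 0.11 (-0.70 ± 0.12, adjusted p = 0.00972). Itga3, an integrin chain through which TIMP2 acts on cells, fell by 0.76 ± 0.18 (adjusted p = 0.0317), a call that ended when wild type 1 (0.103), wild type 3 (0.1004), knockout 1 (0.0748) or knockout 2 (0.0876) was left out. Cd63, the tetraspanin that binds TIMP1, and Lrp1, the endocytic receptor that clears TIMP and protease complexes, differed by -0.20 ± 0.14 and -0.28 ± 0.13 (adjusted p = 0.411 and 0.222).

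**Figure D4:**
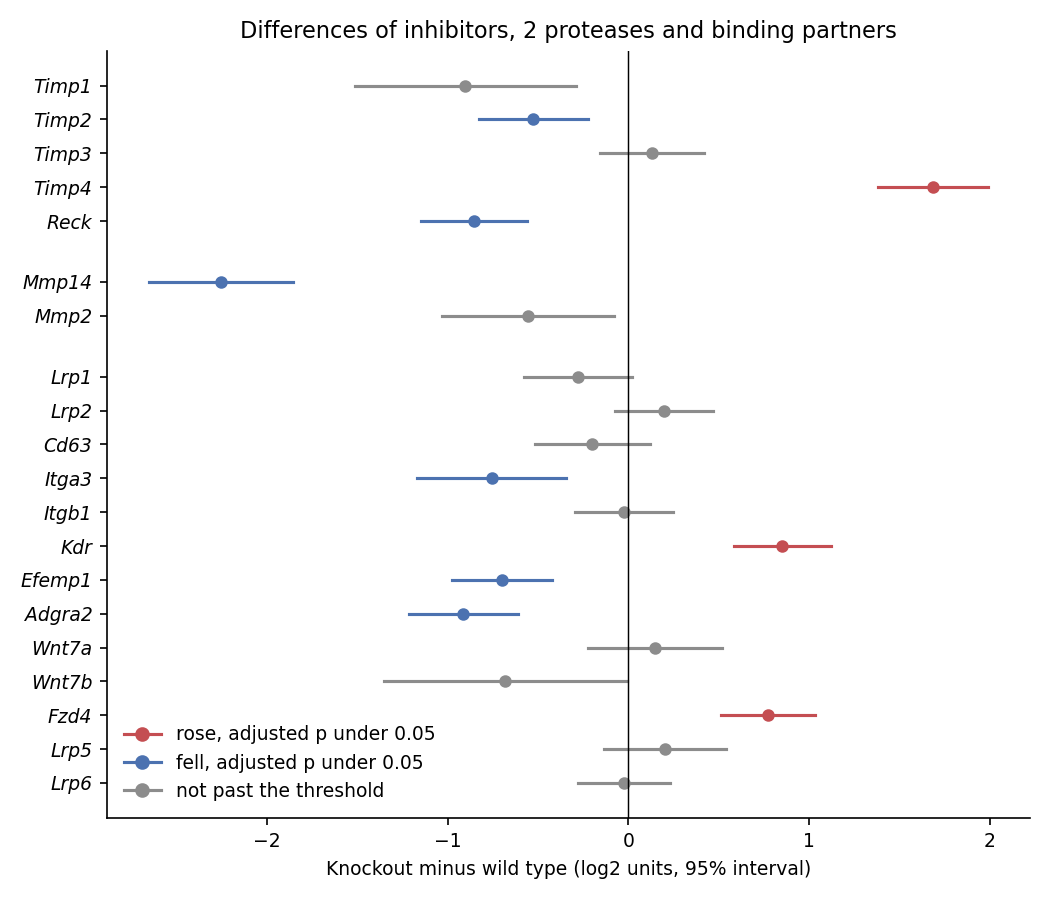
Difference between knockout and wild type (log2 units) with its 95% interval from limma for the 5 inhibitors, Mmp14 and Mmp2, and 13 binding partners, coloured by direction where the adjusted p was under 0.05. Reck and its partner Adgra2 both lie to the left of 0, at -0.85 and -0.91, and Kdr and Fzd4 lie to the right, at 0.85 and 0.77.

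Of the 4 TIMP genes, 3 lie within synapsin genes in the RefSeq gene table (assembly GRCm38.p6), Timp1 in Syn1 on chromosome X, Timp3 in Syn3 on chromosome 10 and Timp4 in Syn2 on chromosome 6. Synapsins coat synaptic vesicles in neurons. Timp2, on chromosome 11, in turn contains Cep295nl, and Reck, on chromosome 4, overlaps no other gene there. Syn2, around Timp4, was 7.02, 7.11 and 7.49 in wild type and 6.99, 7.24 and 6.63 in the knockout, with overlapping groups, and differed by -0.25 ± 0.19 (SE; limma adjusted p = 0.468). Cep295nl, inside Timp2, differed by -0.55 ± 0.17 (adjusted p = 0.0753), close to the Timp2 difference of -0.52. Syn1 differed by -0.39 ± 0.14 (adjusted p = 0.1205) and Syn3 by -0.0027 ± 0.16 (adjusted p = 0.993), a value whose sign turned with the scaling of the arrays.

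Genes with the profile most like each member's were found by the root-mean-square distance between their 6 values, each centred on its wild-type mean, over 6 arrays. The search covered 13578 genes, those at or above the 33rd percentile without predicted genes, Rik clones, olfactory and vomeronasal receptors. Because these genes were picked for their values on the same arrays, their differences are a description. Nearest to Timp4 were Fbxo21 (distance 0.15, difference +1.73 ± 0.13 SE), Ehhadh, a peroxisomal enzyme of fatty acid oxidation (0.19, +1.87 ± 0.14), and Apold1, a gene of activated endothelium (0.20, +1.49 ± 0.19). Nearest to Reck were Sh3d19, P2ry6, a receptor for uridine nucleotides, and Apbb1ip, a Rap1 effector of blood cells, at distances of 0.04 to 0.05. Each differed by -0.82 log2 units. Nearest to Timp2 were Lrrc1, Dpysl2 and Coro1c, an actin regulator (distances 0.04 to 0.05, differences -0.58 to -0.48).

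For Timp1 the nearest genes were Dctd, Socs2 and Prr15l, at distances of 0.16 to 0.17. Dctd differed by -0.85 ± 0.22 (SE), Socs2, a suppressor of growth hormone signalling, by -0.89 ± 0.18 and Prr15l by -0.68 ± 0.27. For Timp3 they were Slf2, Dmap1 and Cnih3, at distances of 0.02 to 0.04 and differences of 0.13 to 0.17.

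Markers of the cell types in the gland were read on the same arrays, where 5.05% of all genes rose and 7.2% fell. Beside the rise of Timp4, 4 of 8 thermogenic adipocyte markers rose and 0 fell, with Elovl3 at -0.67 and Dio2 at -0.65 (limma adjusted p = 0.278 and 0.220), and the mean of the list was 6.10 to 7.40 in wild type and 7.75 to 8.35 in the knockout. Of 7 white adipocyte markers Plin1 rose and 0 fell, with means of 11.23 to 11.32 and 11.38 to 11.53. Among the wild-type arrays, number 1 had the lowest thermogenic mean (6.10) and number 2 the highest (7.40), while Timp4 read 6.88 on both. Ucp1, the uncoupling protein of brown fat, read 4.88, 8.80 and 7.12 in wild type and 9.23, 9.62 and 11.08 in the knockout and did not pass (limma adjusted p = 0.0709). The skeletal muscle list was highest in wild type 1, at a mean of 6.45 against 3.50 and 4.35 in the other wild-type arrays and 3.64 to 3.83 in the knockout, and 0 of its 8 markers passed. Timp4 rose by 1.64 without wild type 1 (limma adjusted p = 0.00488). The part of the adipocyte markers in the Timp4 rise was not tested.

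Beside the falls of Reck and Timp2, 3 of 8 fibroblast markers fell and 0 rose (list means 10.65 to 10.97 in wild type and 10.22 to 10.41 in the knockout), and 5 of 8 macrophage markers fell (8.96 to 9.28 and 8.44 to 8.61). All 8 luminal markers fell (7.86 to 8.05 and 5.21 to 5.63), as did 6 of 7 basal markers (5.51 to 5.93 and 3.89 to 4.13). Of 8 pericyte and smooth muscle markers 3 fell and 1 rose (8.33 to 8.52 and 7.98 to 8.37). Beside the rises of Kdr and Fzd4, 2 of 8 endothelial markers rose and 0 fell (7.59 to 7.75 and 7.88 to 8.38). Emcn at -0.32 and Tek at -0.09 went the other way without passing (limma adjusted p = 0.113 and 0.694). Of 4 Schwann cell markers 1 rose and 1 fell, and 0 of 7 lymphocyte markers passed (3.48 to 3.98 and 3.35 to 3.61). These counts stand beside 7.2% of all genes falling and 5.05% rising. Reck fell by 0.81 without wild type 1 (limma adjusted p = 0.0278). The fat, fibroblast, epithelial, endothelial and macrophage markers all had means over the 6 arrays above the 33rd percentile, as the labelled tissue would have. Krt14, a basal marker, lay under it on each knockout array (2.18, 2.42 and 2.43). The part of these markers in the differences of the inhibitors was not tested.

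**Figure D5:**
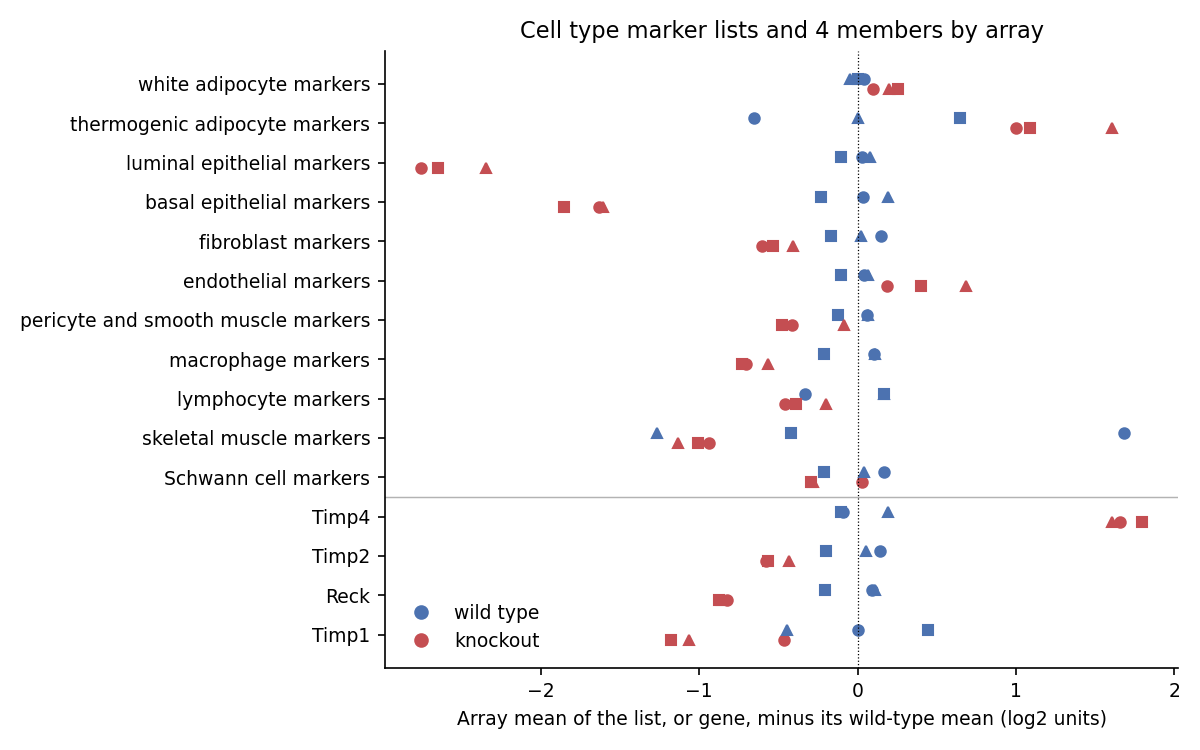
Mean signal of each cell type marker list on each array, and the signal of 4 inhibitors, relative to the wild-type mean (log2 units), with wild type in blue, knockout in red and circles, squares and triangles for replicates 1, 2 and 3. The luminal and basal lists lie farthest to the left in the knockout, the thermogenic list lies farthest to the right among the lists in the knockout, and wild type 1 stands apart for skeletal muscle.

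Array medians ran from 3.77 to 3.89 and array maxima from 13.31 to 13.41, so no member was near the top of the scale. Of all genes 1121 rose and 1596 fell, and after subtraction of array medians 1768 rose and 1333 fell, the median difference going from 0.03 to 0.12. Relative to that shift the members kept their direction, with Timp4 at +1.77, Timp3 at +0.22, Timp2 at -0.44, Reck at -0.76 and Timp1 at -0.81.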

How the data were processed

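Signals are the deposited log2 values of 41345 probe sets. Per the submitters' processing notes, the authors used RMA and limma, versions unstated. RMA corrects background, makes array distributions equal and combines the probes of a set. Base 2 was inferred from RMA and the range of values, since the table does not state it. Per the labels' protocols, 400 ng of total RNA was labelled. For the chip definition and probe filters, the sources used here give nothing.

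Probe sets with 1 symbol (23521; 1814 have several and 16010 are unlisted) were reduced to the highest-mean probe set per gene, giving 22180 genes. Groups were compared with lmFit and eBayes (limma 3.58.1, R 4.3.3), with Benjamini-Hochberg adjustment and a threshold of 0.05. Ratios were tested by exact two-sided permutation. The number of arrays limits the precision. Of these steps, only the limma comparison was tested on simulated data. Members, lists, alternatives and the rule for named genes (the members, Mmp14, Mmp2 and Twist2, up to 6 called genes per list, overlapping genes and the 3 nearest profiles) were chosen with earlier results of these data known. Twist2, the Cre locus, differed by -0.47 (limma adjusted p = 0.277), and by -0.24 without wild type 1 and -0.28 without knockout 2. Promoters are from RefSeq (GRCm38.p6), and all 5 members matched.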

Additional observations from a re-analysis of the deposited data

How the results depend on the processing

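Timp4 and Reck passed under every alternative run, Timp4 at +1.63 to +1.87 log2 units and Reck at -0.95 to -0.67, and Timp3 passed under none (+0.03 to +0.32). Timp1, at -0.90, passed with low genes left out (limma adjusted p = 0.0493), an intensity trend (0.0373) or a robust trend (0.0360), and ran from -1.12 to -0.68 with 1 array left out. Timp2 missed the threshold when arrays were centred on their medians (-0.44), when centred on the medians of the genes tested (-0.34, adjusted p = 0.0893), a choice made after seeing the data, and with the replicate number as a block (-0.52, adjusted p = 0.0770). It ran from -0.62 to -0.45 with 1 array left out. The sign of Syn3 turned with repeated quantile normalization (0.16), centring on array medians (0.0855) or on gene medians (0.18), and ran from -0.139 to 0.0910 with 1 array left out. With 1 array left out the Timp1/Mmp2 ratio ran from -0.67 to 0.0905 and Timp2/Mmp2 from -0.0580 to 0.148, both highest without wild type 2. Over all genes, 1490 to 2304 passed with 1 array left out and 4333 (3155 rose, 1178 fell) when centred on gene medians. Of the secreted MMPs, 1 passed with array-median centring or the block, 4 with gene-median centring (3 rose, 1 fell) and 1 to 2 with 1 array left out. ADAMTS calls ran from 3 to 5 in the last setting. Of the list of other inhibitors and related proteins, 7 passed with either trend. Replicate numbers were not taken to pair the mice. Deviations of same-numbered arrays correlated at -0.05 to -0.03, no array correlated best with its own number, and the block gave 1923 calls against 2717. The cause of these shifts was not tested.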

Other observations

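A list of Timp1 regulators held AP-1 subunits, STAT3, RUNX and ETS factors, and also signalling genes such as Socs3 and Tgfb1. Of its 16 genes, 14 were measured. Of these, 4 fell and 0 rose, beside a background of 7.2% of genes falling and 5.05% rising. Runx1, a transcription factor that binds upstream of Timp1, fell from 8.53 ± 0.24 (SD) to 7.003 ± 0.23 (-1.53 ± 0.17 SE, limma adjusted p = 0.0019). Socs3, a feedback inhibitor and target of STAT3, fell by 0.81 ± 0.15 (adjusted p = 0.0112), and by 0.35 (adjusted p = 0.105) as the mean of its probe sets. Ets2 and Tgfb1 fell by 0.56 ± 0.14 and 0.57 ± 0.13 (adjusted p = 0.0398 and 0.0291), and both lost the call without any 1 array other than knockout 3 (0.0642 to 0.114). Stat3 differed by -0.06 ± 0.13 (adjusted p = 0.801). Fos read 6.74 ± 0.06 in wild type and 5.43 ± 1.23 in the knockout and did not pass (adjusted p = 0.155). These genes were named after their values had been seen, and Timp1 itself did not pass.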
